A study of Rattus norvegicus with 6 samples.

Results

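Sprouty genes (Spry1, Spry2 and Spry4), Spred genes (Spred1 and Spred2), the ETV transcription factor genes (Etv1, Etv4 and Etv5) and Phlda1 were followed in H9c2 cells, a myoblast line derived from embryonic rat heart. These 9 genes were taken by name as feedback inhibitors and transcription factors of the ERK pathway, and a gene counted as measured where a probe with an mRNA accession mapped to its rat symbol. Of the 9 members 7 had a probe, and 6 of the 7 were bright enough to test, out of 13823 coding genes with a probe and 10001 tested. Spry1 and Etv4 were not analysed here.

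The H/R group was made up of 3 samples of cells put through hypoxia and reoxygenation, with 1 h in 1% O2, 5% CO2 and 94% N2 and then 3 h in normoxia, in DMEM deprived of FBS and glucose. The control group was made up of 3 samples, and both groups had been grown in DMEM with 4500 mg/L glucose and 10% FBS. The labels name no medium for the control cells during the experiment, so loss of serum and glucose cannot be told apart from the change of oxygen. Messenger RNA and long non-coding RNA were read in 1 colour (Cy3) on Agilent arrays.

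Binding of a growth factor to a receptor tyrosine kinase switches on RAS, which passes the signal through RAF and MEK to ERK. ERK then raises transcription of genes that hold the pathway back, and the Sprouty and Spred proteins are among these. Sprouty proteins block the pathway between the receptor and RAF, and Spred proteins bring the RAS inactivator neurofibromin to the membrane. Etv1, Etv4 and Etv5 form the PEA3 group of ETS transcription factors, whose transcripts are a standard readout of fibroblast growth factor (FGF) signalling through ERK. The repressor capicua (Cic) holds the PEA3 genes and Spry4 down until ERK inactivates it. Phlda1 encodes a pleckstrin homology domain protein whose transcript is induced by growth factors and stress.

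Start-site sequence was set beside the values for the 3 members in which a match lay in the printed window and whose transcript changed. RefSeq (GRCr8) holds a window from 250 bases before to 50 bases after the start for 8 of the 9 members, 9 windows in all because Spry2 has 2. Letters were searched on both strands for the capicua octamers TGAATGAA and TGAATGGA, their shared core TGAATG, the ETS sites CCGGAAGT and ACCGGAAG, their shared core CCGGAA, the AP-1 site TGANTCA, the CRE site TGACGTCA and its core TGACG. Each core lies inside its longer sites, so a match to a longer site is also a match to the core. The core TGAATG was added after the Spry4 window had been seen. Capitals mark matches to any of the 3 cores on either strand. The Spry4 window is chr18:30702497-30702796 on the minus strand, the Spry2 window is chr15:89111877-89112176 on the minus strand, and the Phlda1 window is chr7:48853440-48853739 on the plus strand; each is written 5′ to 3′ along its gene.
Spry4: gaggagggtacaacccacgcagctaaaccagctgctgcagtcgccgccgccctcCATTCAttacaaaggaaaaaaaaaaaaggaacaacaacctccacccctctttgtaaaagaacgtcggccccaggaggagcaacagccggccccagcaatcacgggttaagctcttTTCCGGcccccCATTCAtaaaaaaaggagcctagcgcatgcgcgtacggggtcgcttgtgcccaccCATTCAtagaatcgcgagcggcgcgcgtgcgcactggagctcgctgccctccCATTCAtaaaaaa
Spry2: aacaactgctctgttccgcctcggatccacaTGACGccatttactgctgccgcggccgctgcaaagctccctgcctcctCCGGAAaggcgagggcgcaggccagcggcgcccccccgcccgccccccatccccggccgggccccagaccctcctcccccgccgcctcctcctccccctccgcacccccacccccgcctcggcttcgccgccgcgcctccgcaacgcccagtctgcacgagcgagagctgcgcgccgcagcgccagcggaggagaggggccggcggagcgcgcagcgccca
Phlda1: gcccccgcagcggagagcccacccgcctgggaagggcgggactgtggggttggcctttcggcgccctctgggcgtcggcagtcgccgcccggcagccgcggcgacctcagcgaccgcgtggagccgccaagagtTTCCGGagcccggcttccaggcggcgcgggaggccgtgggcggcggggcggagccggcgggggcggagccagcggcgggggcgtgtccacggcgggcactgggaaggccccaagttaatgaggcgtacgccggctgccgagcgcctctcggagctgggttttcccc

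The Spry4 window held TGAATG 4 times, beginning 196, 70 and 15 bases before the start and 37 bases after it, all on the strand opposite to the gene. At the first of these the letters extended to the octamer TGAATGGA. Among 33469 windows of 27457 genes, 13.1% held TGAATG at least once and 25 windows (0.0747%) held it 4 or more times. The cut of 4 is the count of the Spry4 window itself, so this share is a description and not a test. TGAATGGA was found in 1.31% of windows. CCGGAA, which 15.0% of windows held, occurred once each in the windows of Spry4 (81 bases before the start, opposite strand), Spry2 (171 bases before, gene strand) and Phlda1 (116 bases before, opposite strand). TGACG, held by 21.2% of windows, occurred in the windows of Spry2 (219 bases before the start, gene strand) and Spred2 (51 bases before, opposite strand). None of TGAATGAA (1.39% of windows), CCGGAAGT (3.81%), ACCGGAAG (2.49%), TGANTCA (7.33%) and TGACGTCA (1.83%) was found in a member's window. The windows of Spry1, Spred1, Etv1 and Etv5 and the second Spry2 window held none of the letters searched. G and C made up 56.0% of the Spry4 window, 76.3% of the Spry2 window and 77.0% of the Phlda1 window, against a median of 51.7% over all windows.

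**Figure D1:**
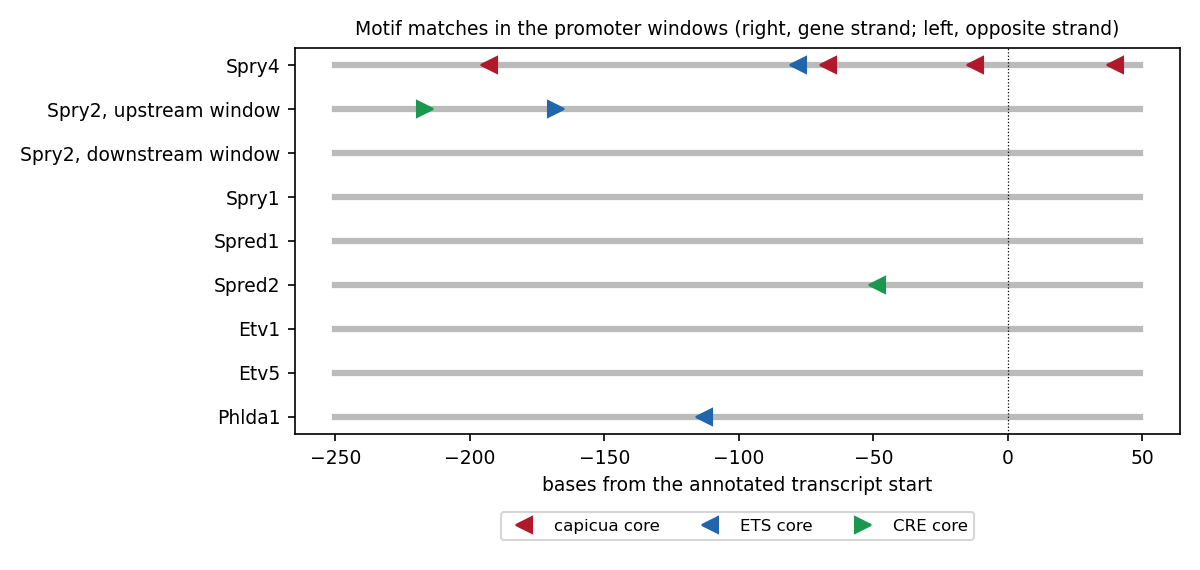
Matches to the capicua core (red), the ETS core (blue) and the CRE core (green) in the 9 promoter windows, with bases from the annotated transcript start on the x axis. Arrowheads point right for the gene strand and left for the opposite strand. Spry4 carries 4 capicua core matches, and 5 of the 9 windows carry no match.

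A value here is log2 of a probe's processed signal minus the 75th percentile of all probes in the same scan, so 0 is the brightness of the 75th percentile. It can be compared between samples for 1 probe and not between probes. Replicates 2 and 3 of each group came from the same slide position in different scans and shared 36 spots with uneven background, against at most 1 in any other pair of scans. Their median absolute log2 difference was 0.0556 in H/R and 0.0478 in control, against 0.185 to 0.425 in the other pairs. They were averaged as 1 array, which left 2 arrays against 2, and p-values measure only the spread between these arrays. The 4 arrays held 4 slide positions, and effects of position cannot be told apart from those of the group. Of the spots, 58.4% to 71.1% were well above background and 0 were saturated in any scan.

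In H/R cells 5 of the 6 members tested were lower than in control cells, 0 were higher and 1 did not pass the threshold (limma, adjusted p under 0.05). Among all coding genes tested, 9.62% were called lower, 16.2% higher and 25.8% either way, and 23.7% of all probes tested were called. The 6 tested members were well above background in all 6 scans. Their median log2 change was −1.48, against 0.07 over all coding genes tested. In 6 of the 6 every H/R scan lay below every control scan, an order seen in 27.9% of coding genes. Spry4, Etv5, Phlda1 and Etv1 passed the threshold with a fall of at least 2-fold, as did 1.97% of coding genes. In bulk RNA of this kind, fewer cells with a transcript and less transcript per cell cannot be told apart.

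**Figure D2:**
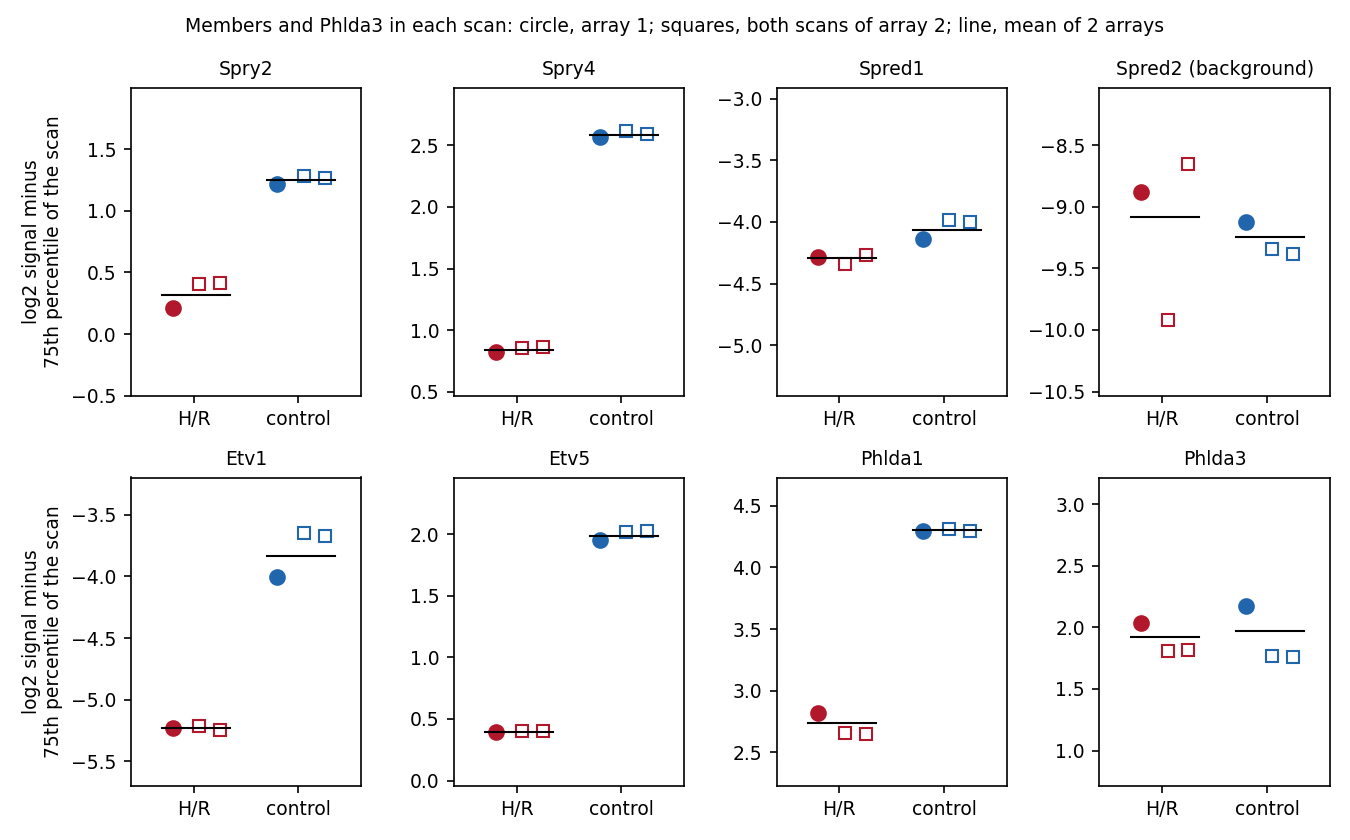
Log2 signal minus the 75th percentile of the scan (y axis, the same span of log2 units in every panel) for 7 members with a probe and for Phlda3, with H/R scans in red left of control scans in blue. Circles are array 1, squares are both scans of array 2 and lines are means of the 2 arrays. The H/R points lie below the control points for Spry2, Spry4, Spred1, Etv1, Etv5 and Phlda1, and the groups overlap for Spred2 and Phlda3.

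Spry4, which inhibits RAS activation downstream of receptor tyrosine kinases, fell furthest of the members. Its log2 values were 0.82, 0.86 and 0.87 in H/R replicates 1 to 3, against 2.57, 2.61 and 2.60 in control replicates 1 to 3. All H/R scans were low, all control scans were high, and scans of a group lay close together. The array means were 0.84 ± 0.03 in H/R and 2.59 ± 0.03 in control (SD, n = 2 arrays each). The log2 change was −1.74 ± 0.09 (SE; 95% interval −1.98 to −1.51; adjusted p = 0.00183), which left Spry4 at 29.9% of its control signal. It ranked 46 in size of fall among the 10001 coding genes tested.

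Spry2 encodes a Sprouty protein that binds GRB2 and the ubiquitin ligase CBL, and it also fell. The log2 values of Spry2 were 0.22, 0.40 and 0.42 in H/R replicates, against 1.22, 1.28 and 1.27 in control replicates. H/R replicate 1 was the lowest scan, and the groups did not overlap. The log2 change of Spry2 was −0.93 ± 0.11 (95% interval −1.22 to −0.65; adjusted p = 0.00815), to 52.4% of control. With no filter on dim probes the change of Spry2 missed the threshold (adjusted p = 0.0574) in a fit of 24578 probes. Leaving out 1 array at a time gave −1.03 to −0.84, with a highest adjusted p of 0.0491.

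The estimated fall of Spry2 was smaller than that of Spry4. On each array the Spry2 value minus the Spry4 value was −0.61 and −0.45 in H/R, against −1.35 and −1.33 in control, a shift of 0.81 on the log2 scale. The H/R and control differences did not overlap. An exact permutation test of 2 arrays against 2 (two-sided) cannot go below p = 0.333, the value it gave. Spry3, a further Sprouty gene, did not rise well above background in any of the 6 scans.

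Spred1, which recruits neurofibromin to RAS, was dim and did not pass the threshold. Its processed signals were 91.0, 127 and 137 units in H/R replicates, against 139, 133 and 130 units in control replicates. On the scaled log2 axis Spred1 read −4.28, −4.34 and −4.27 in H/R and −4.14, −3.98 and −4.00 in control. The H/R scans were slightly lower than the control scans once scaled, without overlap, while the unscaled signals overlapped. The log2 change of Spred1 was −0.22 ± 0.10 (95% interval −0.49 to 0.04; adjusted p = 0.171), an interval that leaves out the estimates of Spry4, Spry2, Etv1, Etv5 and Phlda1. Only with all 6 scans taken as separate samples, which counts the second array of a group as 2 samples, did Spred1 pass (−0.25; adjusted p = 0.0130, or 0.0270 with scan as a block).

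Spred2, the other Spred gene with a probe, was well above background in 0 of the 6 scans. Its processed signals were 3.75, 2.66 and 6.55 units in H/R replicates and 4.40, 3.23 and 3.12 units in control replicates. The groups overlap, and no fold is given.

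Spry4 and Spred1 stood furthest apart among the 15 pairs of tested members. Spry4 minus Spred1 was 5.10 and 5.16 in H/R, against 6.71 and 6.60 in control, a shift of −1.52 on the log2 scale with groups that did not overlap (exact permutation p = 0.333, the smallest possible). With that limit of p, adjustment over the 15 pairs leaves no pair past a threshold.

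Etv5, a PEA3 factor, fell to 33.3% of its control signal. Etv5 read 0.39, 0.41 and 0.40 in H/R replicates, against 1.95, 2.01 and 2.03 in control replicates. The H/R scans were almost level and all far below the control scans. The log2 change of Etv5 was −1.59 ± 0.09 (95% interval −1.83 to −1.35; adjusted p = 0.00205), at rank 59 in size of fall. The array means of Etv5 were 0.40 ± 0.01 in H/R and 1.98 ± 0.05 in control (SD, n = 2 arrays each).

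Etv1, a PEA3 factor known in mouse heart from the conduction tissue, fell to 37.9% of control but from a dim probe. The processed signals of Etv1 were 47.0, 69.1 and 69.4 units in H/R replicates, against 153, 167 and 164 units in control replicates. On the scaled log2 axis these were −5.23, −5.21 and −5.25 in H/R and −4.00, −3.65 and −3.67 in control. The H/R scans were level, control replicate 1 was the lowest control scan, and the groups did not overlap. The log2 change was −1.40 ± 0.14 (95% interval −1.77 to −1.03; adjusted p = 0.00592).

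Etv1 had a second probe, of another accession. It read −5.19, −5.17 and −5.23 in H/R replicates, against −3.88, −3.86 and −3.82 in control replicates. Its log2 change of −1.33 ± 0.09 (adjusted p = 0.00276) left 39.7% of control, and it differed from that of the first probe by less than either standard error. Both probes gave low H/R and high control values in all scans.

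The values of the dim members Etv1 and Spred1 depended on the background correction, and H/R replicate 1 stood apart under the other correction. With normexp correction of the raw spot and local background brightness, Etv1 read −2.31, −4.15 and −4.06 in H/R replicates, against −3.40, −3.11 and −3.13 in control replicates. H/R replicate 1 then lay above the control scans and both scans of the second H/R array lay below them. The log2 change was 0.05 for Etv1 (adjusted p = 0.963) and 0.63 for Spred1 (adjusted p = 0.534). Normexp also moved the median of all probes to 0.33, and relative to that median Etv1 changed by −0.28 and Spred1 by 0.30. Spred1 likewise read −2.21 in H/R replicate 1 and −3.76 and −3.54 in replicates 2 and 3, against −3.61, −3.48 and −3.54 in control. The brighter members had log2 changes under normexp of −1.77 for Spry4, −1.67 for Etv5, −1.74 for Phlda1 and −0.96 for Spry2. In that limma fit 0 of 15899 probes passed the threshold and 2030 had an unadjusted p under 0.05, so none of the 5 calls was kept.

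Phlda1 lay at 33.8% of its control signal in H/R cells. Phlda1 read 2.82, 2.66 and 2.65 in H/R replicates, against 4.30, 4.31 and 4.29 in control replicates. The control scans were almost level, H/R replicate 1 was the highest H/R scan, and the groups stood far apart. The log2 change of Phlda1 was −1.56 ± 0.10 (95% interval −1.84 to −1.29; adjusted p = 0.00269), at rank 65 in size of fall. Phlda3, a p53-induced inhibitor of AKT in the same family, had 2.04, 1.81 and 1.82 in H/R and 2.17, 1.77 and 1.76 in control. Its groups overlapped and its log2 change was −0.04 ± 0.17 (95% interval −0.49 to 0.41; adjusted p = 0.875).

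Etv5 and Phlda1 moved by amounts that these arrays could not separate. Etv5 minus Phlda1 was −2.43 and −2.25 in H/R, against −2.35 and −2.28 in control, with a shift of −0.02 and overlapping groups (exact permutation p = 1). Etv1 minus Etv5 was −5.62 and −5.63 in H/R and −5.95 and −5.68 in control, a shift of 0.19 without overlap that is smaller than the gap between the control arrays.

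Both scans held both groups, and the members' log2 changes were close between the scans. The arrays of the second scan are taken as already read in the first, so this closeness is no repeat on other arrays. In the first scan, with 2 arrays a group, they were −1.75 for Spry4, −1.58 for Etv5, −1.57 for Phlda1, −1.40 for Etv1, −0.94 for Spry2 and −0.25 for Spred1. In the second scan, with 1 array a group and no test, they were −1.73 for Spry4, −1.62 for Etv5, −1.65 for Phlda1, −1.58 for Etv1, −0.85 for Spry2 and −0.26 for Spred1.

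**Figure D3:**
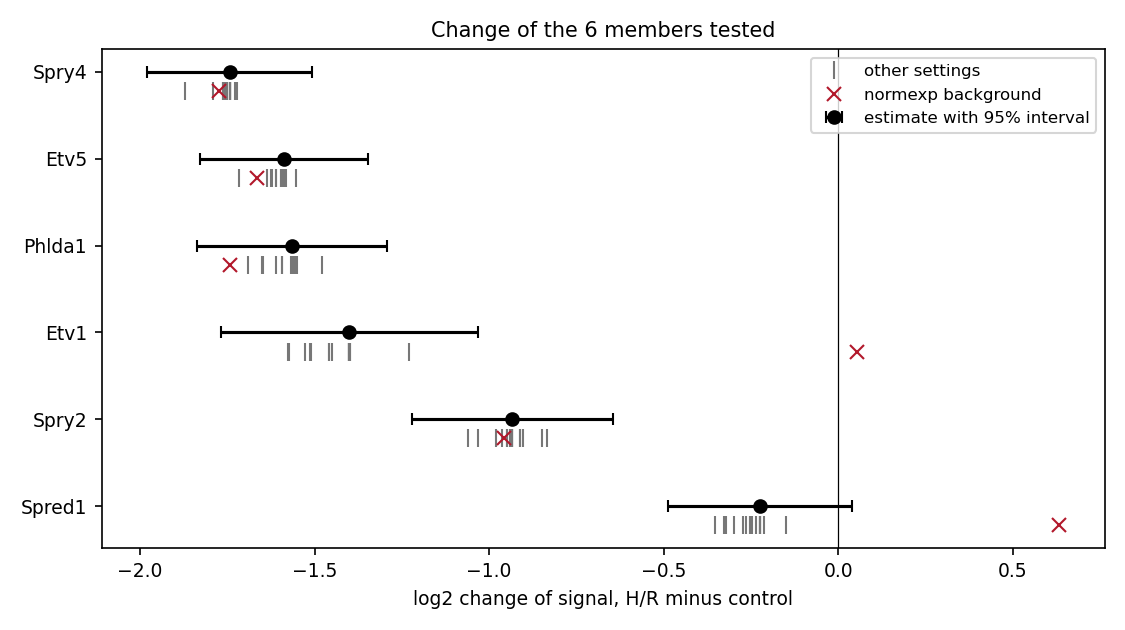
Log2 change, H/R minus control, of the 6 members tested (black points with 95% intervals), with the values under the alternative settings as grey ticks and under normexp background correction as red crosses. Spry4, Etv5, Phlda1, Etv1 and Spry2 have intervals below 0, the interval of Spred1 spans 0, and the crosses of Etv1 (0.05) and Spred1 (0.63) lie right of 0, in a setting whose median over all probes was 0.33.

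The genes most like the members over the 4 arrays were found by the Euclidean distance between centred log2 values. The mean centred value of the 6 members was −0.63 and −0.62 on the H/R arrays, against 0.57 and 0.68 on the control arrays. Closest were Slc4a11 (a membrane transporter of the bicarbonate transporter family; distance 0.0416), Srpx2 (a secreted sushi-repeat protein; 0.05003), Asb5 (an ankyrin repeat and SOCS box protein; 0.0568), Slc16a11 (a monocarboxylate transporter family member; 0.0633) and Gpr15lg (a secreted ligand of the receptor GPR15; 0.0793). Their log2 changes were −1.26, −1.25, −1.28, −1.27 and −1.32. The distance is over 4 arrays only and reads mainly the size of the difference between groups.

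A list of other genes taken by name as feedback and output genes of ERK, Cish, Rasa1 and Epha4 among them, included 8 that fell. Induction by ERK in these cells was not tested for any of them. Of the 17 genes listed 13 were measured and tested, with 8 lower, 2 higher and 3 not past the threshold, and their median log2 change was −0.91. By comparison, 9.62% of all coding genes tested were called lower and 16.2% higher. Errfi1, an inhibitor of the EGF receptor, fell by 1.52 ± 0.10 (log2; adjusted p = 0.00226). Dusp5, a nuclear ERK phosphatase, fell by 1.63 ± 0.11 (adjusted p = 0.00244). Cyclin D1 (Ccnd1) fell by 1.36 ± 0.14 (adjusted p = 0.00606).

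The ERK phosphatase Dusp6 read −6.14, −7.35 and −7.32 in H/R, against −1.62, −2.31 and −2.32 in control. All H/R scans were far below the control scans, with H/R replicate 1 the highest of them. The log2 change of Dusp6 was −4.77 ± 0.45 (adjusted p = 0.00514), and it was −5.37 without H/R replicate 1 and −4.18 without H/R replicates 2 and 3. Dusp6 had the largest fall of all 10001 coding genes tested. Under normexp the log2 change of Dusp6 was −1.81, which is −2.15 relative to the median of all probes there. The size of its fall thus depended on the background correction.

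The other falls of this list were of Epha2 (an ephrin receptor, −0.73), Rasa1 (a RAS inactivator, −0.91) and the immediate-early factors Fos (−1.53) and Egr1 (−1.35). Fos and Egr1 changed sign under normexp, also relative to the median of all probes there (0.08 and 0.23). Cish, a cytokine signalling inhibitor, and Epha4, an ephrin receptor, rose by 0.60 and 0.44 on the log2 scale. Without H/R replicate 1 the list had 4 lower and 0 higher genes, and without H/R replicates 2 and 3 it had 6 lower and 0 higher. Leaving out an array also lowered the share of all probes called, to 2.23% lower and 4.64% higher without H/R replicate 1 and to 2.37% lower and 3.97% higher without H/R replicates 2 and 3.

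Among other ETS factors 1 fell, a share near the 9.62% of all coding genes called lower. Of 17 genes 14 were on the array and 9 were tested, with 1 lower, 0 higher and a median of −0.23. Ets1 read 0.49, 0.57 and 0.57 in H/R and 1.27, 1.303 and 1.29 in control. The groups of Ets1 did not overlap, with a log2 change of −0.75 ± 0.09 (adjusted p = 0.00876). The call was lost when either H/R array was left out. The other 8 lay between −0.73 and −0.01 on the log2 scale.

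Receptors and ligands that feed RAS were called in both directions, and no set test was run. Of 27 genes 26 were on the array and 21 were tested, with 4 lower, 3 higher and a median of 0.06, where 9.62% of coding genes were lower and 16.2% higher. The EGF receptor ligand amphiregulin (Areg) read −3.98, −4.01 and −4.01 in H/R, against −1.43, −1.32 and −1.29 in control. Every H/R scan of Areg was low, and its log2 change was −2.63 ± 0.10 (adjusted p = 0.00157). The ligands Hbegf, Fgf2 and Pdgfa fell by 1.26, 1.03 and 0.94 on the log2 scale, with adjusted p of 0.00848, 0.0125 and 0.00600. Under normexp Areg had a log2 change of −1.60, which is −1.93 relative to the median of all probes there. Fgf2 had a log2 change of 0.21 under normexp, which is −0.12 relative to that median. Fgf21, an endocrine FGF, and the receptors Pdgfrb and Egfr rose by 0.87, 0.51 and 0.48, with adjusted p of 0.00699, 0.0338 and 0.0338. Fgf21 was well above background in 2 of the 3 control scans, and the rises of Pdgfrb and Egfr were lost when any 1 of the 4 arrays was left out. Without H/R replicates 2 and 3 the list had 2 lower and 0 higher genes.

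Transcripts of the cascade itself were called either way at a share near that of all coding genes, with more falls than rises. Of 29 genes of the RAS, RAF, MEK and ERK cascade 23 were on the array and 21 were tested. Of these 4 were lower and 2 higher, with a median of −0.14. Among all coding genes 9.62% were lower, 16.2% higher and 25.8% called either way. The RAS genes Hras and Rras2 fell by 0.72 and 0.62 and the phosphatase gene Ptpn11, which promotes RAS activation, by 0.58 on the log2 scale. Mapk3, which encodes ERK1, and the adaptor Gab1 rose by 0.65 and 0.47. When either H/R array was left out, 0 genes of this list passed in either direction in limma, and Hras had a log2 change of 0.01 under normexp, which is −0.32 relative to the median of all probes there.

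Partners of Sprouty and Spred gave 1 lower and 1 higher gene among 11 tested (15 of 17 on the array; median −0.11). Among all coding genes 9.62% were lower and 16.2% higher. Rasa2, a RAS inactivator, fell by 1.47 ± 0.20 (adjusted p = 0.0104), a call lost without H/R replicate 1. Under normexp the log2 change of Rasa2 was −0.50, which is −0.83 relative to the median of all probes there. Wt1, a transcription factor known to activate Spry1, rose by 1.29 ± 0.13 (adjusted p = 0.00575). Among regulators of the PEA3 factors 6 of 10 genes were tested (7 on the array), with 0 lower, 1 higher and a median of 0.16. The share higher was near that of all coding genes. Det1, an adaptor of the ubiquitin ligase that degrades PEA3 proteins, rose by 0.68 ± 0.10 (adjusted p = 0.0125), a call lost when either H/R array was left out. The transcript of the repressor Cic changed by 0.04 ± 0.09 (adjusted p = 0.775).

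Over all the related lists 82 genes were tested, with 18 lower, 9 higher and a median of −0.11. With each scan centred on its median, 28 were lower and 5 higher, and the rises of Epha4, Egfr, Pdgfrb and Gab1 were lost. The same centring changed the calls over all 15899 probes to 2253 lower (14.2%) and 1566 higher (9.85%), against 1411 lower (8.87%) and 2358 higher (14.8%), as it moved the median of all probes to −0.06, against 0.07 with the 75th percentile. Relative to the median of all probes, which both scalings share, Spry4 changed by −1.81, Etv5 by −1.66, Phlda1 by −1.63, Etv1 by −1.47, Spry2 by −1.002 and Spred1 by −0.29.

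**Figure D4:**
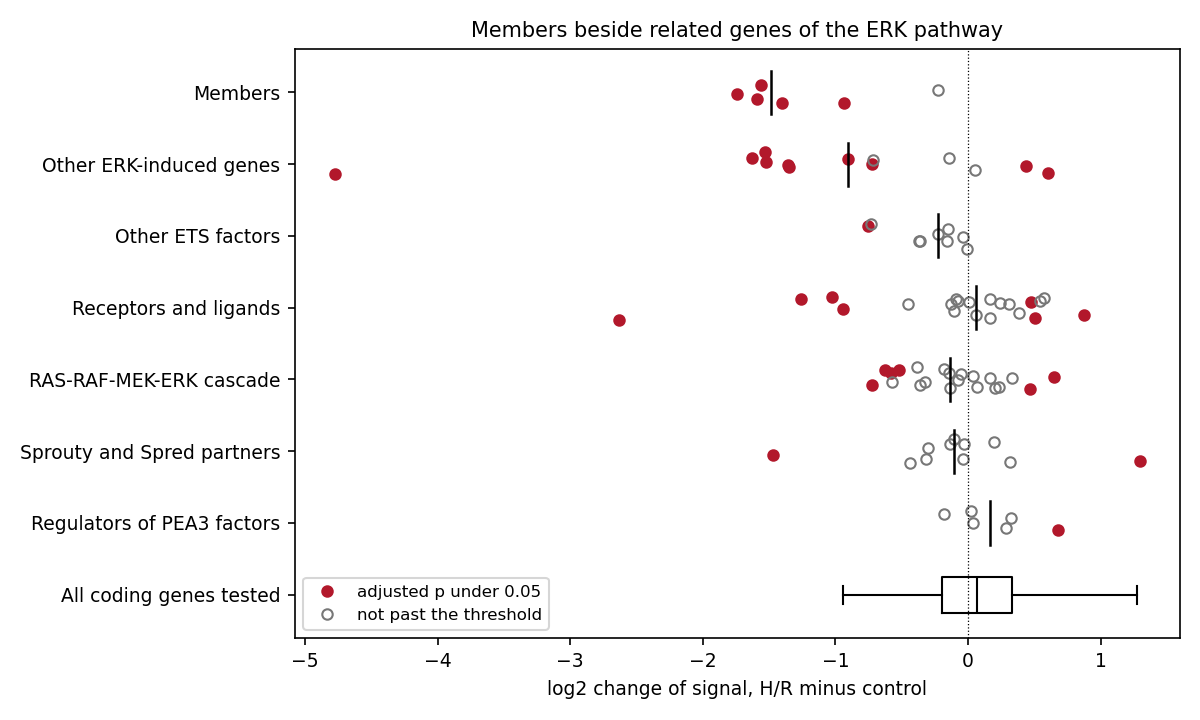
Log2 change, H/R minus control, of the members and of the related gene lists. Red points passed an adjusted p of 0.05, open points did not, vertical bars are medians, and the box at the bottom gives the quartiles of the 10001 coding genes tested with whiskers over the middle 95%. The members and the other genes listed as ERK-induced have medians of −1.48 and −0.91, and the medians of the other lists lie between −0.23 and 0.16.

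The labelled cell type was checked against marker genes. All 13 muscle markers on the array were well above background in all 6 scans, with summed signals, relative to the 75th percentile of the scan, of 29.7 to 32.9 in H/R and 29.3 to 30.8 in control. Tnnt2, Myh3 and Tnnt1 rose and Myod1 fell by 1.48 on the log2 scale. All 5 fibroblast markers on the array were also above background in every scan (sums of 64.3 to 65.7 in H/R and 51.5 to 62.0 in control), and Dcn rose. A sentence of the treatment protocol names cortex of mice as the RNA source. Of 9 brain markers on the array, Rbfox3, Aqp4, Slc17a7 and Gad1 were not well above background in any scan (sums over the 9 of 0.682 to 0.715 in H/R and 0.411 to 0.412 in control). Gfap and Mbp of the same list reached that level in 6 of 6. Of the 10 leukocyte markers on the array, Csf1r, Cd68, Fcer1g, Aif1, Cd14 and Tyrobp reached it in 6 scans, Mrc1 in 2, and Ptprc, Adgre1 and Itgam in 0. Of the 3 endothelial markers on the array, Tek reached that level in 6 scans and Pecam1 and Cdh5 in 0. The sums of the 10 leukocyte markers on the array were 1.63 to 1.67 in H/R and 1.44 to 1.57 in control, and those of the 3 endothelial markers were 0.0963 to 0.116 in H/R and 0.0506 to 0.0549 in control, with Tek higher. The part of these differences in the members' changes was not tested.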

How the data were processed

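The deposited intensity of each spot came from Agilent Feature Extraction 11.0.1.1 (submitters' processing notes); per the file headers it is corrected for background and spatial trend but not normalized between arrays. Other deposited columns are flags of 0 or 1 for spots that are outliers, saturated or well above background. A further deposited table holds log2 values, whose columns correlated with the log2 scanner values at r of 0.9998 to 0.9999 and had medians of 9.159 to 9.163; it is in log2, its genes are not centred, and its normalization method is not stated in the sources used. Random-primed cRNA was made after removal of ribosomal RNA, per the labels.

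Control and outlier spots were left out, and log2 intensity minus each scan's 75th percentile over 24578 probes was fitted with limma 3.58.1 (R 4.3.3; two-sided, 2 residual and 2.86 prior degrees of freedom). P-values were adjusted by Benjamini-Hochberg over 15899 probes well above background in all 3 scans of a group. Python 3.11.15, pandas 2.3.3 and matplotlib 3.10.9 served for reading and drawing. Only the limma fit of 2 arrays against 2 was tested on simulated data. Normexp (offset 50) used median spot brightness, since mean brightness was not used here. Symbols came from RefSeq (GRCr8) by unversioned accession for 14274 of 15323 coding probes; the brightest probe stood for a gene. The number of per-sample columns left unmapped was 0.

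Members and lists were chosen with earlier results of these data known. All 9 members are named, with up to 4 called genes per list by adjusted p, every called gene where 5 or fewer moved one way, every measured family gene and the 5 nearest profiles. Fos, Rasa1, Epha2 and Egr1 complete their list, and a few genes that the rule would name are not reported here. Nothing says that the samples came from separate cultures. Alternatives covered scaling, background, dim probes, scans, arrays left out, the replicate block, the deposited table, probe choice and prior. The number of arrays limits precision.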

Additional observations from a re-analysis of the deposited data

How the results depend on the processing

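The 5 falls of Spry4, Spry2, Etv1, Etv5 and Phlda1 kept their direction and their side of the threshold under all tested alternatives except normexp and, for Spry2, no filter on dim probes. Normexp background correction gave 0 members lower, a median of the members of −1.31 and 0 related genes lower or higher, and it gave 0.054 for Etv1 and 0.63 for Spred1; as it moved the median of all probes to 0.33, Etv1 stayed lower relative to that median (−0.28) and Spred1 did not (0.30), and the cause was not tested. The number of members lower was otherwise 4 (no dim filter), 5 or 6 (6 scans as separate samples, with or without scan as a block). Their median was −1.61 with median scaling, −1.60 with the second scan only (1 array a group, no test), and −1.57 to −1.39 with 1 array left out. Related genes, 18 lower and 9 higher, came to 28 and 5 with median scaling, 4 and 1 with no dim filter, 34 and 17 with 6 separate scans, 30 and 14 with scan as a block, and 8 to 17 lower and 1 (without H/R replicates 2 and 3), 3 (without H/R replicate 1) or 5 higher with 1 array left out. With 1 array left in a group, it is assumed to vary like the other group. Calls over all probes numbered 3769, 594 with no dim filter, 8309 with 6 separate scans, 7423 with scan as a block and 1008 to 2702 with 1 array left out. The replicate block gave 5 members lower, 21 related genes lower and 3886 calls, and changed no member's call; same-numbered arrays share only a number (r = 0.153 between their deviations). Scan as a block, the second scan alone and the percentile over spots were chosen after seeing the data. Dim signal limits Etv1 and Spred1, and background brightness allows no value for Spred2.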
